A study of Mus musculus with 20 samples.

Results

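Synaptic transmission begins at the presynaptic terminal, where vesicles are filled with transmitter, docked, fused with the membrane when calcium enters, and then retrieved. The 38 genes described here encode this machinery: vesicle transporters, vesicle membrane proteins, calcium sensors, the SNARE proteins that drive fusion with their regulators, active zone scaffolds, and endocytic proteins. They were chosen by name and role, with earlier results of these data known, and all their probes were followed through the 6 groups of the study. Of the 38 genes, 35 had a named probe on the array, out of 15785 genes named in all, and 29 had a probe bright enough to test. Those 29 genes were read by 34 tested probes, out of 10447 tested probes of the whole array.

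The samples were primary cortical neurons, cultured for 7 days from the fetal cortex of Swiss Albino mice at gestational day 15 to 16. The 5 control cultures received no agent. The other groups, of 3 arrays each, were deprived of oxygen and glucose (OGD), which models stroke in a dish, with oxygen kept below 50 mm Hg, for 10 min, 5 h, 8 h, 15 h or 24 h. How glucose was withheld is not given in the sources used here, nor is it stated whether replicates came from separate cultures, so p-values refer to the spread among these samples alone, and that spread could be technical.

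Neurons loaded with glutamate are recognised by the vesicular glutamate transporters, and inhibitory neurons by the vesicular GABA transporter. Cortical neurons build up the release machinery as they mature in culture. On the arrays, general neuronal transcripts such as Tubb3, Map2, Gap43, Stmn2 and Dcx were detected on all 5 controls, while Nefl and Nefh, the light and heavy neurofilament genes, were detected on none of the 20 arrays. Astrocyte transcripts such as Gfap, Aqp4 and Apoe were also detected on all 5 controls.

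An array's median signal was 53.1 to 65.4, and its share of detected probes 37.0% to 40.8%. There were 3 slides: 10 min shared a slide with control 1, 5 h and 8 h shared another with controls 4 and 5, and 15 h and 24 h shared the remaining slide with controls 2 and 3. On the first principal component of all tested probes, control 2 lay at 9.7 and the other controls between -24.9 and -14.7, with the 10 min, 15 h and 24 h arrays on the side of control 2. On the same component, 24 h replicate 3 lay at 28.2, beside the 15 h arrays at 27.1 to 27.2, and the other 24 h arrays at 19.8 and 21.9. Counts are also given without control 2 or 24 h replicate 3, and a member's value where its call changes without one of them. The probe names come from the identifiers of the bead-level profile: under them 62 probes of ribosomal proteins, which every cell makes in quantity, had a median signal of 3675 (percentile 98.6), against 57.6 (percentile 49.8) under the names of the processed tables. Even so, both probes of Snap25, a SNARE gene that neurons express strongly, read at background, so a probe at background is no evidence that the transcript was missing.

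After 15 h of OGD the release machinery was lower as a group. Of the 34 tested probes, 26 passed the test as lower and 0 as higher, which is 76.5% of the probes and 23 of the 29 genes. The 26 include Unc13a, whose dim probe passed the detection filter only through control and 8 h arrays, so its call is no evidence of a fall. It also counts among the non-overlapping probes below. Over all 10447 tested probes 19.9% were lower and 18.7% higher. Since the members were chosen with earlier results of these data known, these shares and those of the other comparisons below describe the set and do not test it. The differences of the 34 probes ran from -1.54 to -0.01 on the log2 scale with a median of -0.62, beside a median of -0.02 over all tested probes. Of the 34 probes, 25 had all 3 arrays of 15 h below all 5 controls, as had 16.1% of all tested probes, and 0 had them above, against 16.0%. Fewer cells of a type and less RNA per cell cannot be told apart in such bulk samples.

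The 15 h arrays resembled each other. The mean of the 34 probes, as a deviation from the control mean, was -0.60, -0.66 and -0.62 on the 3 arrays. The 5 controls lay between -0.10 and 0.15, the 5 h arrays between 0.05 and 0.17, the 8 h arrays between -0.18 and 0.00, and the 10 min arrays between -0.17 and -0.04. At 24 h the means were -0.25, -0.27 and -0.51. All 24 h means were thus above those of 15 h and below those of every control.

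**Figure D1:**
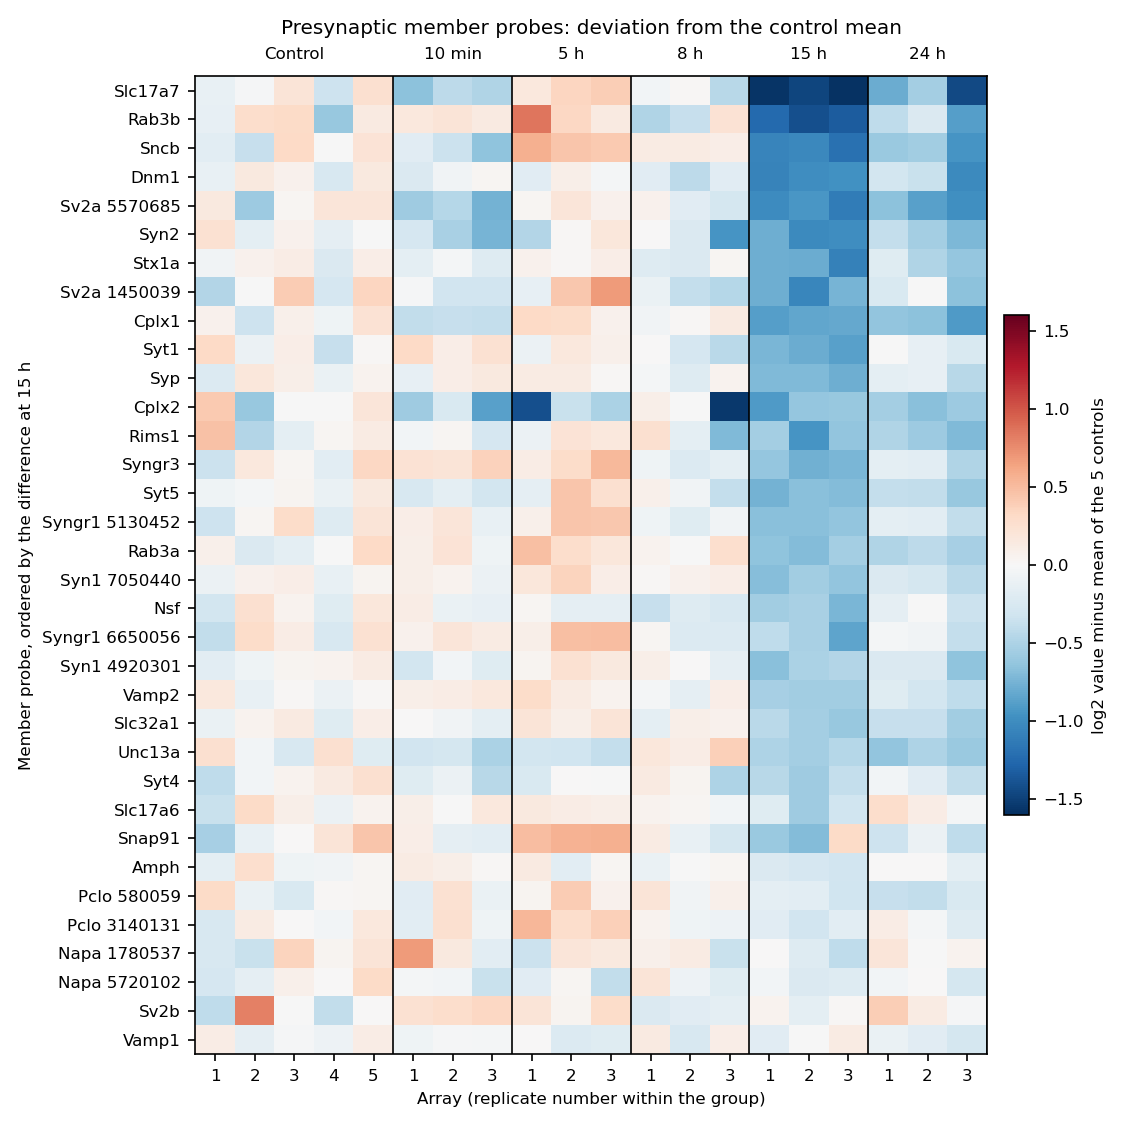
Log2 value of each of the 34 tested member probes (rows, ordered by the difference at 15 h) on each of the 20 arrays (columns, by group and replicate number) minus the mean of the 5 controls, with blue for lower and red for higher values. The 3 columns of 15 h are blue from Slc17a7, at -1.54 on average, down to Amph with few exceptions. The columns of 24 h are paler, that of replicate 3 the least, with a mean of -0.51 against -0.25 and -0.27.

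For 4 of the genes that the results turn on, all lower at 15 h, the promoter is shown. They are the largest fall (Slc17a7), the 2 genes that passed as higher at 24 h than at 15 h (Syp and Syt1), and Syn1. Syn1 was read lower by both of its probes at 15 h, as were Sv2a and Syngr1, whose windows are not shown. The windows run from 250 bases before to 50 bases after the annotated start, 5′ to 3′ on the gene's strand, from RefSeq on GRCm38.p6. Of the 38 members 32 had such a window, 41 windows in all. Capitals mark matches, on either strand, to 5 short motifs: TTCAGCACC, a part of the RE1 element bound by the repressor REST; TGACGTCA, the cyclic AMP response element, which reads the same on both strands; ACGTG and GCGTG, the core of the hypoxia response element; and GGGCGG, the GC box.
Slc17a7 at chr7:45163671-45163970, plus strand: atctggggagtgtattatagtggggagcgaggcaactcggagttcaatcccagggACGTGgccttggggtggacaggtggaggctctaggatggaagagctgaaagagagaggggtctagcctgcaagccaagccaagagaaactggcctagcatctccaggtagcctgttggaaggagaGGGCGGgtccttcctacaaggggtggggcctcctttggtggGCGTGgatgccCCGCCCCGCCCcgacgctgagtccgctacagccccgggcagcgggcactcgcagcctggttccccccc
Syp at chrX:7638330-7638629, plus strand: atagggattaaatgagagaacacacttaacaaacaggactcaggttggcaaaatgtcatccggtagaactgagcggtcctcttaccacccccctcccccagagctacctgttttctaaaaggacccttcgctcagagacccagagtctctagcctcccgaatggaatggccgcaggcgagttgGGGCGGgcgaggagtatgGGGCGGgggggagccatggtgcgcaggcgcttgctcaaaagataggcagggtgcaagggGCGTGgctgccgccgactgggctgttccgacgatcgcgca
Syt1 at chr10:109010926-109011225, minus strand: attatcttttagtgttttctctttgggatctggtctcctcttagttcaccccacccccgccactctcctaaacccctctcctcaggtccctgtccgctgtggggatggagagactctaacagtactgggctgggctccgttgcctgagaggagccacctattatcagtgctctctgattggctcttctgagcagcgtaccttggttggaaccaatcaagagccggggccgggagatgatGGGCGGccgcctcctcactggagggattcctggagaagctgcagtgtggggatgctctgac
Syn1 at chrX:20920869-20921168, minus strand: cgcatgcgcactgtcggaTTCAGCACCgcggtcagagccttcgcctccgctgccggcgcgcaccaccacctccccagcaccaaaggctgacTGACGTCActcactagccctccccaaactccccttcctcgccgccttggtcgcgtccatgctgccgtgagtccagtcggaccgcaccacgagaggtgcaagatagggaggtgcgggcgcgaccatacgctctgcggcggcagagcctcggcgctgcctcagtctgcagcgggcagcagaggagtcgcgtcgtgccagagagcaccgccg
In the Slc17a7 window ACGTG starts at -195 and GCGTG at -29 from the start of transcription, beside 3 GC boxes, of which the last 2 share 1 base and lie on the other strand. The Syp window holds 2 GC boxes and GCGTG at 10, the Syt1 window 1 GC box at -11 in the first of its 2 windows, and the Syn1 window TTCAGCACC at -232 and TGACGTCA at -159. Among the 32 members with a window, TTCAGCACC was found for Syn1 and Unc13a and TGACGTCA for Napa and Syn1. Syn1 was the only member with both, so its window is not typical of the members. By windows, TTCAGCACC was in 4.88% of the 41 member windows and 0.371% of all 32851 windows of the table, and TGACGTCA in 4.88% and 1.79%. ACGTG was in 22.0% and 19.6%, GCGTG in 56.1% and 32.4%, and GGGCGG in 61.0% and 35.7%. These are matches of letters, not sites shown to be used.

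The vesicular transporters load transmitter into vesicles: Slc17a7 (VGLUT1) and Slc17a6 (VGLUT2) carry glutamate, and Slc32a1 (VGAT) carries GABA and glycine. Slc17a7 read 7.94, 8.04, 8.26, 7.73 and 8.32 on controls 1 to 5. It read 6.49, 6.59 and 6.48 at 15 h, and 7.26, 7.51 and 6.61 at 24 h. The 15 h arrays were the lowest of all 20, and the groups of 15 h and of 24 h did not overlap with the controls. Slc17a7 fell by 1.54 ± 0.17 at 15 h (log2 difference ± SE of the fit, here and below with n = 3 against 5 controls, limma adjusted p = 2.53e-06), or 2.90-fold, and with slide as a block by 1.63. At 24 h it remained lower, by -0.93 ± 0.17 (adjusted p = 0.000392).

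Slc17a6 moved less. It read 9.81, 10.47, 10.27, 10.08 and 10.22 on the controls, 9.97, 9.60 and 9.85 at 15 h, and 10.45, 10.29 and 10.14 at 24 h. Control 1 lay within the range of the 15 h arrays, and the 24 h arrays lay inside the range of the controls. The 15 h difference was -0.36 ± 0.12 (adjusted p = 0.0221), which did not pass without 15 h replicate 2 (-0.26, adjusted p = 0.144). Slc32a1 read 9.78, 9.95, 10.03, 9.70 and 10.00 on the controls, 9.46, 9.35 and 9.29 at 15 h, and 9.52, 9.52 and 9.33 at 24 h. All arrays of 15 h and 24 h lay below all controls. Slc32a1 fell by 0.53 ± 0.09 at 15 h (adjusted p = 0.000224) and was still lower at 24 h by -0.44 ± 0.09 (adjusted p = 0.00187).

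Relative to Slc17a6 on the same array, Slc17a7 was lower by -1.17 on average at 15 h (range -1.37 to -0.90) and by -1.05 at 24 h (range -1.42 to -0.66), with the controls at -0.32 to 0.24 around their own mean. Relative to Slc32a1, Slc17a7 was at -1.01 at 15 h (range -1.13 to -0.93) and at -0.50 at 24 h (range -0.89 to -0.17), with the controls at -0.13 to 0.16. These ratios show unequal change within an array and were not tested.

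Among the vesicle membrane proteins, synaptophysin (Syp) is a classic marker of vesicles, and the synaptogyrins are its relatives. Syp read 11.87, 12.27, 12.18, 11.98 and 12.14 on the controls, 11.38, 11.38 and 11.31 at 15 h, and 11.93, 11.96 and 11.65 at 24 h. The 15 h arrays lay below all other arrays, and the 24 h arrays overlapped the controls. Syp fell by 0.73 ± 0.10 at 15 h (adjusted p = 2.71e-05), and at 24 h the difference was -0.24 ± 0.10 (adjusted p = 0.0892), or -0.38 ± 0.12 with slide as a block (adjusted p = 0.04). Syngr1 was read lower by both probes at 15 h, by -0.66 ± 0.13 and -0.59 ± 0.15 (adjusted p = 0.00051 and 0.00452), and Syngr3 by -0.71 ± 0.13 (adjusted p = 0.000259). None of these 3 synaptogyrin probes passed at 24 h, with differences of -0.24, -0.15 and -0.27.

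Sv2a, a vesicle glycoprotein and the target of the antiepileptic drug levetiracetam, has 2 tested probes. Probe 5570685 read 11.08, 10.35, 10.96, 11.12 and 11.12 on the controls, 9.92, 10.00 and 9.81 at 15 h, and 10.27, 10.06 and 9.94 at 24 h. Control 2 was the lowest control, yet all 15 h and 24 h arrays lay below it. This probe fell by 1.02 ± 0.15 at 15 h (adjusted p = 2.65e-05) and was at -0.84 ± 0.15 at 24 h (adjusted p = 0.000314). Without control 2 these values were -1.16 and -0.98. Probe 1450039 read 5.81, 6.27, 6.69, 6.01 and 6.62 on the controls, 5.50, 5.23 and 5.54 at 15 h, and 6.03, 6.27 and 5.63 at 24 h. It also fell at 15 h, by 0.85 ± 0.20 (adjusted p = 0.00217), with detection on 2 of the 3 arrays, and without background correction the difference was -0.47. At 24 h its arrays overlapped the controls, and unlike the other probe it did not pass there, at -0.30 ± 0.20 (adjusted p = 0.266).

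The relative Sv2b passed at neither time. It read 10.00, 11.22, 10.40, 10.02 and 10.42 on the controls, 10.47, 10.25 and 10.43 at 15 h, and 10.80, 10.54 and 10.39 at 24 h. Control 2 was the highest of all 20 arrays, and the other groups lay within the range of the controls. The difference was -0.03 ± 0.19 at 15 h and 0.16 ± 0.19 at 24 h (adjusted p = 0.917 and 0.539). Without control 2 Sv2b was higher at 24 h, by 0.37 ± 0.12 (adjusted p = 0.0177), and at 10 min, by 0.48 ± 0.12 (adjusted p = 0.00352). With slide as a block, which sets the 15 h arrays against controls 2 and 3, the 15 h difference was -0.43 ± 0.18 (adjusted p = 0.0866). Sv2a 5570685 relative to Sv2b on the same array was at -1.13 to -0.76 at 15 h, inside the range of the controls, -1.38 to 0.58.

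The synapsins are phosphoproteins that hold vesicles in the reserve pool. Syn1 was lower by both probes at 15 h, by -0.55 ± 0.11 and -0.62 ± 0.09 (adjusted p = 0.000485 and 1.96e-05), and at 24 h, by -0.37 and -0.31 (adjusted p = 0.0133 and 0.00929). On both probes and at both times every OGD array lay below every control. The 24 h calls were lost without 24 h replicate 3 (-0.23 and -0.25, adjusted p = 0.144 and 0.0773), and that of probe 4920301 also with slide as a block (-0.36, adjusted p = 0.0724). Syn2 read 9.60, 9.20, 9.43, 9.22 and 9.35 on the controls, 8.58, 8.34 and 8.37 at 15 h, and 8.98, 8.82 and 8.64 at 24 h. Its 15 h and 24 h arrays lay below all controls, and 8 h replicate 3 read as low as those of 15 h, at 8.42. Syn2 fell by 0.93 ± 0.18 at 15 h (adjusted p = 0.000411) and was at -0.55 ± 0.18 at 24 h (adjusted p = 0.0267). The 24 h call was lost without 24 h replicate 3 (-0.46 ± 0.21, adjusted p = 0.134) and with slide as a block (-0.50 ± 0.23, adjusted p = 0.153). Beta-synuclein (Sncb), a small presynaptic protein, read 10.09, 9.89, 10.57, 10.25 and 10.48 on the controls, 9.20, 9.23 and 9.06 at 15 h, and 9.66, 9.70 and 9.31 at 24 h. All arrays of both times lay below all controls. Sncb fell by 1.09 ± 0.14 at 15 h (adjusted p = 8.51e-06), or 2.13-fold, and was at -0.70 ± 0.14 at 24 h (adjusted p = 0.000807).

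**Figure D2:**
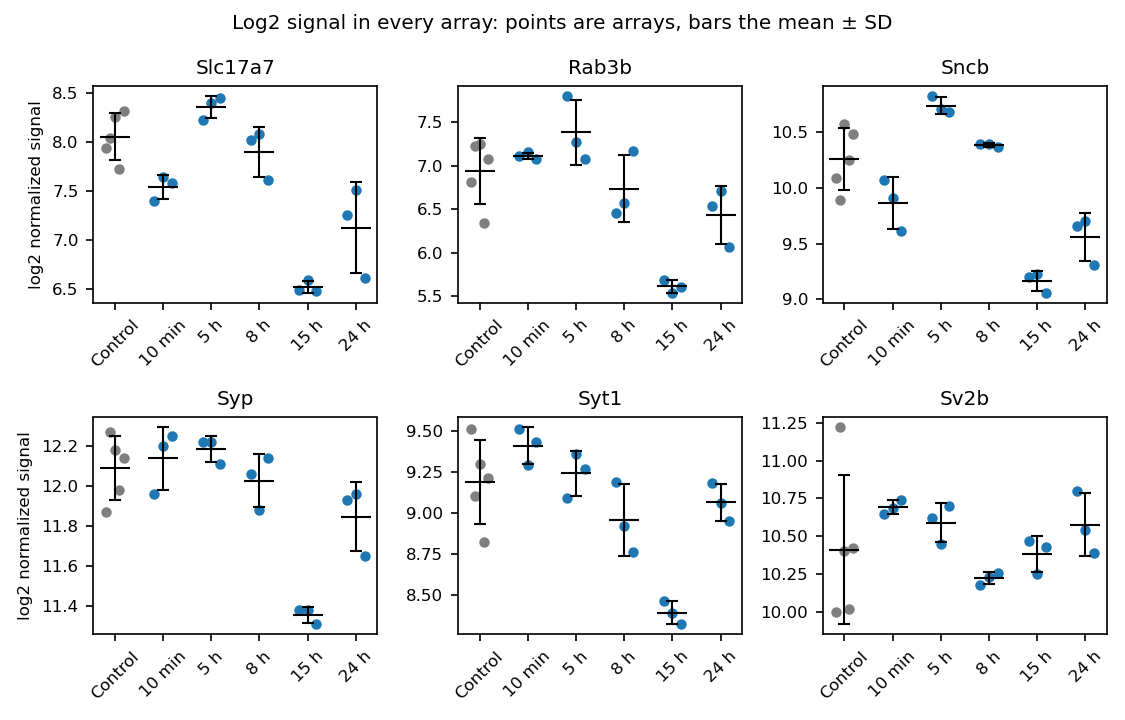
Normalized log2 signal of 6 member probes (Slc17a7, Rab3b, Sncb, Syp, Syt1 and Sv2b) on every array, by group; points are arrays and bars the mean ± SD (5 controls, 3 arrays at each time). For Slc17a7 the 15 h arrays sit at 6.48 to 6.59, below the controls at 7.73 to 8.32, while for Sv2b the groups overlap.

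Rab3 proteins are GTPases that bring vesicles to the release site. Rab3b read 6.81, 7.22, 7.25, 6.34 and 7.08 on the controls, 5.69, 5.54 and 5.61 at 15 h, and 6.53, 6.71 and 6.06 at 24 h. The 15 h arrays were the lowest of all, and the 24 h arrays overlapped the controls. Rab3b fell by 1.33 ± 0.20 at 15 h (adjusted p = 5.38e-05), or 2.51-fold, with -0.82 under quantile normalization without background correction. At 24 h it was at -0.51 ± 0.20 (adjusted p = 0.0677), and with slide as a block at -0.80 ± 0.24 (adjusted p = 0.0336). Rab3a fell by 0.63 ± 0.11 at 15 h (adjusted p = 0.000254) and was lower at 24 h, at -0.48 ± 0.11 (adjusted p = 0.00364), a call lost with slide as a block (-0.29 ± 0.12, adjusted p = 0.14).

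Synaptotagmins are vesicle proteins of which Syt1 is the calcium sensor of fast release. Syt1 read 9.51, 9.10, 9.30, 8.82 and 9.21 on the controls, 8.46, 8.39 and 8.32 at 15 h, and 9.18, 9.06 and 8.95 at 24 h. The 15 h arrays lay below all other arrays, and the 24 h arrays lay inside the range of the controls. Syt1 fell by 0.80 ± 0.13 at 15 h (adjusted p = 7.95e-05), and at 24 h the difference was -0.12 ± 0.13 (adjusted p = 0.512). Syt5, another calcium-binding synaptotagmin, fell by 0.71 ± 0.12 at 15 h and was at -0.46 ± 0.12 at 24 h (adjusted p = 0.000126 and 0.00718). Its 24 h call was lost without 24 h replicate 3 (-0.39, adjusted p = 0.0588) and with slide as a block (-0.46, adjusted p = 0.0536). Syt4, whose calcium binding is altered, fell by 0.46 ± 0.15 at 15 h (adjusted p = 0.0187). Its groups overlapped, and it did not pass without 15 h replicate 1 or 2 (adjusted p = 0.0509 and 0.076).

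Fusion is driven by SNARE proteins, with Vamp1 or Vamp2 on the vesicle and Stx1a with Snap25 on the plasma membrane. Stx1a read 11.65, 11.78, 11.82, 11.47 and 11.81 on the controls, 10.92, 10.91 and 10.63 at 15 h, and 11.51, 11.22 and 11.09 at 24 h. The 15 h arrays lay below all controls, and 24 h replicate 1 lay within their range. Stx1a fell by 0.89 ± 0.11 at 15 h (adjusted p = 7.87e-06) and was at -0.44 ± 0.11 at 24 h (adjusted p = 0.0054), a call lost without 24 h replicate 3 (-0.34, adjusted p = 0.0566). Vamp2 read 11.37, 11.08, 11.22, 11.10 and 11.22 on the controls, 10.67, 10.64 and 10.64 at 15 h, and 11.00, 10.91 and 10.79 at 24 h. No Vamp2 array of 15 h or 24 h reached the lowest control. Vamp2 fell by 0.55 ± 0.09 at 15 h (adjusted p = 7.95e-05) and was at -0.30 ± 0.09 at 24 h (adjusted p = 0.0154), a call lost without 24 h replicate 3 (-0.24, adjusted p = 0.101) and with slide as a block (-0.25, adjusted p = 0.124).

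Vamp1 was read close to background, so its values show little about a fall. Its probe read 5.62, 5.36, 5.48, 5.42 and 5.62 on the controls and 5.32, 5.50 and 5.63 at 15 h, while the lowest signal of a detected probe was 5.21 to 5.54 per array. The groups overlapped, and the difference at 15 h was -0.01 ± 0.10 (adjusted p = 0.930). The probe was detected on 14 of 20 arrays and at 24 h on none, where it read 5.39, 5.32 and 5.22 and was at least 1.04-fold lower than the controls (adjusted p = 0.171).

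The complexins clamp and then promote fusion. Cplx1 read 11.64, 11.24, 11.65, 11.50 and 11.80 on the controls, 10.69, 10.74 and 10.75 at 15 h, and 10.94, 10.91 and 10.66 at 24 h. All arrays of both times lay below all controls. Cplx1 fell by 0.84 ± 0.11 at 15 h (adjusted p = 1.11e-05) and was at -0.73 ± 0.11 at 24 h (adjusted p = 8.04e-05). Cplx2 had a difference of -0.71 ± 0.30 at 15 h that did not pass (adjusted p = 0.0667), although its 15 h arrays, at 7.17, 7.46 and 7.48, all lay below the controls, of which control 2 read lowest and 7.48 after rounding. Without control 2 it passed, at -0.86 ± 0.30 (adjusted p = 0.0231). Its spread was wide: 5 h replicate 1 read 6.68 and 8 h replicate 3 read 6.54, against 7.57 to 8.18 on the other arrays of these times.

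After fusion, the ATPase Nsf and its adaptor alpha-SNAP (Napa) take SNARE complexes apart. Nsf fell by 0.60 ± 0.12 at 15 h (adjusted p = 0.000583) and was at -0.17 ± 0.12 at 24 h (adjusted p = 0.316). Napa passed with neither probe. Probe 1780537 read 5.61, 5.50, 6.22, 5.91 and 6.07 on the controls and 5.87, 5.66 and 5.46 at 15 h, and probe 5720102 read 6.14, 6.27, 6.49, 6.42 and 6.72 and then 6.37, 6.18 and 6.20. The groups of both probes overlapped. The 15 h differences were -0.20 ± 0.19 and -0.16 ± 0.13 (adjusted p = 0.43 and 0.362).

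Active zone proteins prepare vesicles for release: Unc13a (Munc13-1) primes them, and Rims1, Pclo (piccolo) and Bsn (bassoon) build the scaffold. Rims1 read 7.70, 6.76, 7.08, 7.27 and 7.36 on the controls, 6.69, 6.29 and 6.60 at 15 h, and 6.75, 6.65 and 6.53 at 24 h. All arrays of both times lay below the lowest control, which was control 2. Rims1 fell by 0.71 ± 0.19 at 15 h (adjusted p = 0.00589) and was at -0.59 ± 0.19 at 24 h (adjusted p = 0.0227). With slide as a block the 15 h difference was -0.39 ± 0.20 and no longer passed (adjusted p = 0.16), nor did that of 24 h, at -0.28 ± 0.20 (adjusted p = 0.393). Without 24 h replicate 3 the 24 h call was lost as well (-0.54 ± 0.22, adjusted p = 0.1). Unc13a passed as lower at 15 h and 24 h (adjusted p = 0.00162 and 0.000929), but its probe was detected on 4 of 20 arrays, 2 of them controls and 2 of 8 h, so that it passed the filter only through these groups. It was not well above background on any 15 h or 24 h array, and its control mean of 5.27 gives no bound on the fold. Pclo had differences of -0.22 on both probes at 15 h that did not pass. At 24 h its dimmer probe, 580059, was lower by -0.34 ± 0.12 (adjusted p = 0.0463) with detection on 1 of 3 arrays, while probe 3140131 was at -0.04 ± 0.11. The call of probe 580059 was lost without 24 h replicate 3 (-0.38, adjusted p = 0.0776) and with slide as a block (-0.16, adjusted p = 0.488).

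Endocytic proteins retrieve the vesicle membrane. Dynamin 1 (Dnm1), the GTPase that pinches vesicles off, read 7.06, 7.34, 7.25, 6.93 and 7.34 on the controls, 6.11, 6.19 and 6.21 at 15 h, and 6.89, 6.83 and 6.17 at 24 h. All arrays of both times lay below all controls, and 24 h replicate 3 read within the range of the 15 h arrays. Dnm1 fell by 1.02 ± 0.14 at 15 h (adjusted p = 1.98e-05), or 2.02-fold, and was at -0.56 ± 0.14 at 24 h (adjusted p = 0.00558). Without 24 h replicate 3 the 24 h difference was -0.33 ± 0.12 and did not pass (adjusted p = 0.0751). Amphiphysin (Amph), which recruits dynamin, read 10.91, 11.34, 11.00, 11.01 and 11.10 on the controls, and 10.84, 10.80 and 10.77 at 15 h. The groups did not overlap, but the gap between them was small. The difference was -0.27 ± 0.10 (adjusted p = 0.0311), and it did not pass without control 2 or 5 or without any 1 of the 15 h arrays (adjusted p = 0.0552 to 0.0963). Snap91 (AP180), a clathrin assembly protein, had a difference of -0.33 ± 0.20 (adjusted p = 0.201), with 15 h replicate 3 at 6.98 and the other 15 h arrays at 6.09 and 5.98.

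**Figure D3:**
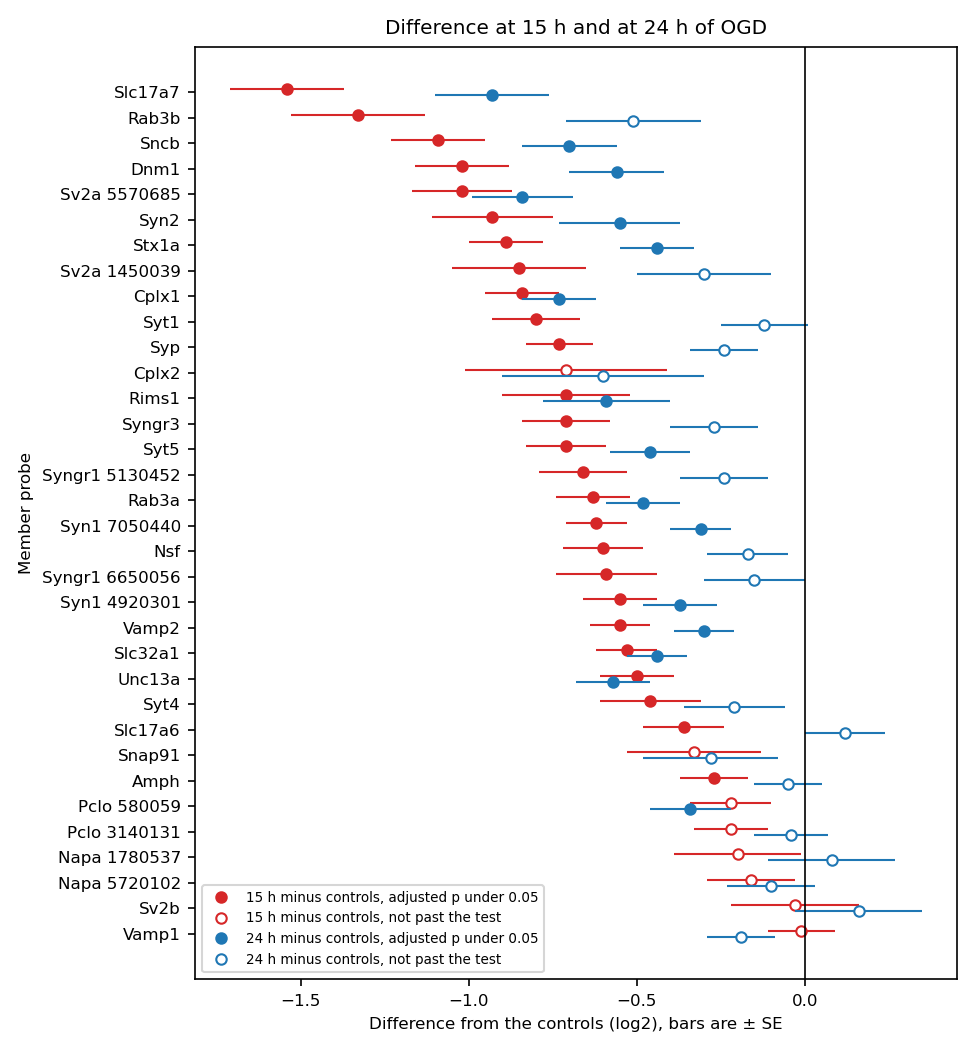
Difference from the 5 controls (log2, bars ± SE) of each member probe at 15 h (red) and at 24 h (blue), with filled points for an adjusted p under 0.05. All 34 points of 15 h lie below 0, from -1.54 for Slc17a7 to -0.01 for Vamp1, and most points of 24 h lie nearer to 0.

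At 24 h of OGD the machinery was still lower, with smaller differences. Of the 34 probes 16 passed as lower and 0 as higher (47.1%, 15 genes), against 14.4% lower and 14.7% higher over all tested probes. Unc13a, whose call is no evidence of a fall, is again counted in, here and among the non-overlapping probes. The median difference was -0.31, beside -0.02 over all probes, and 31 of 34 differences lay below 0. Of the 34 probes, 15 had all 24 h arrays below all controls, as had 13.0% of all tested probes, and 0 had them above, against 13.3%. The 15 h and 24 h comparisons share their controls, so their values are set side by side. Syt1 was at -0.80 at 15 h and -0.12 at 24 h, Nsf at -0.60 and -0.17, and Rab3b at -1.33 and -0.51. Cplx1 was at -0.84 and -0.73, Slc32a1 at -0.53 and -0.44, and Rab3a at -0.63 and -0.48. Replicate 3 was the lowest of the 24 h arrays on 30 of 34 probes. Without it 7 probes passed, with a median of -0.24: Slc17a7, Slc32a1, Cplx1, Sv2a 5570685, Rab3a, Unc13a and Sncb. Over all tested probes 8.17% were then lower and 9.23% higher. With slide as a block, which sets both times against controls 2 and 3 of their own slide, 25 probes passed as lower at 15 h (median -0.67) and 11 at 24 h (median -0.36). Over all tested probes 14% and 6.16% were then lower. Without control 2, 26 and 16 passed as lower, and Sv2b as higher at 24 h. Of all tested probes 23.5% and 19.9% were lower without control 2.

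The arrays of 24 h were also compared with those of 15 h, which share their slide. Here too the members were chosen with earlier results known, so the shares describe a partial return of the set and do not test it. Only Syt1 and Syp passed as higher (5.88% of the 34 probes) and 0 as lower, against 0.431% higher and 0.613% lower over all tested probes. Syt1 rose by 0.68 ± 0.14 (SE, n = 3 against 3, adjusted p = 0.0233) and Syp by 0.49 ± 0.12 (adjusted p = 0.0458). For both, all 24 h arrays lay above all 15 h arrays. The median difference was 0.25, beside 0.00 over all probes. For 28 of the 34 probes the 24 h mean lay between the means of 15 h and the controls, for 3 it was at or above the control mean and for 3 at or below the 15 h mean. The 3 at or above the controls were Slc17a6, Sv2b and Napa 1780537, and the 3 at or below 15 h were Vamp1, Unc13a and Pclo 580059. For 15 probes the 24 h mean was nearer to the controls than to 15 h. These positions were not counted over all tested probes, so they describe the members and do not show that a return is unusual.

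For 18 of the 34 probes all 24 h arrays lay above all 15 h arrays, as did 15.4% of all tested probes, and for 0 they lay below, against 13.9%. Rab3b was the probe with the widest gap in means, 0.82 ± 0.23 (adjusted p = 0.0845), followed by Slc17a7 at 0.60 ± 0.19 (adjusted p = 0.111) after Syt1. By contrast Slc32a1, Cplx1 and Rims1 were at 0.09 ± 0.11, 0.11 ± 0.12 and 0.11 ± 0.21 (adjusted p = 0.757, 0.743 and 0.858). The calls rest on few arrays. Without 24 h replicate 3, 6 probes were higher (Syt1, Dnm1, Syp, Slc17a7, Rab3b and Stx1a, median 0.32), and without any other single array of the 2 times 0 passed. Without that replicate 0.861% of all tested probes were higher and 0.747% lower. With only these 6 arrays in the fit 9 probes passed, and with slide as a block 3, the third being Slc17a6 at 0.49 ± 0.11 (adjusted p = 0.026). Over all tested probes 4.46% were higher and 4.32% lower with only these arrays, and 0.986% and 1.08% with slide as a block.

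**Figure D4:**
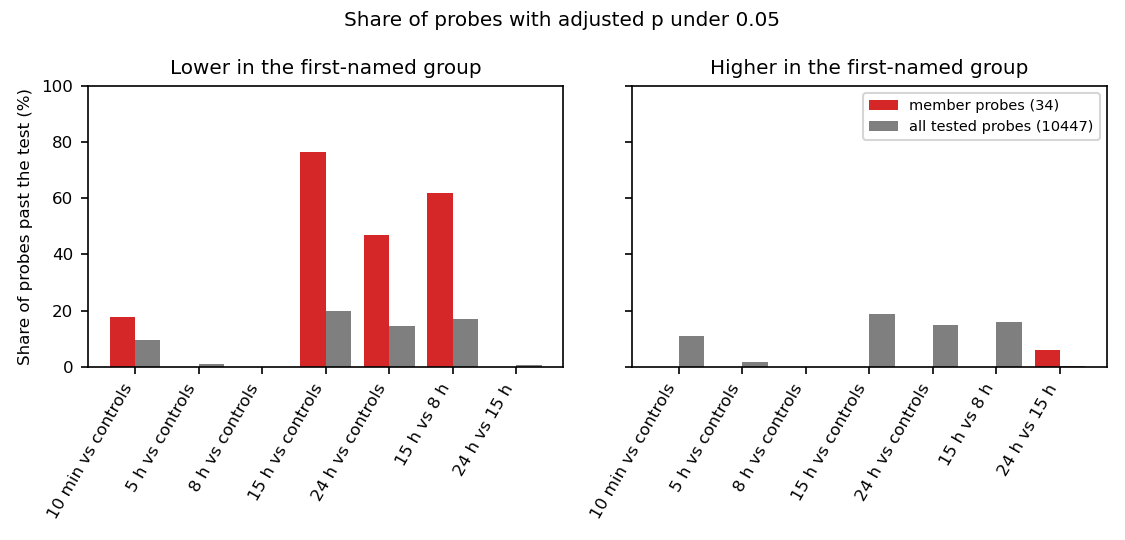
Share (%) of the 34 member probes (red) and of all 10447 tested probes (grey) with an adjusted p under 0.05, lower (left) or higher (right) in the first-named group of each of 7 comparisons. The members' share as lower is 76.5% at 15 h and 47.1% at 24 h, against 19.9% and 14.4% of all tested probes.

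Earlier in OGD the machinery showed no such fall. At 10 min 6 of the 34 probes were lower (17.6%) and 0 higher, against 9.39% and 11.0% of all tested probes, with a median of -0.05. They were Sv2a 5570685 at -0.59 ± 0.15, Slc17a7 at -0.52 ± 0.17, Syn2 at -0.51 ± 0.18, Sncb at -0.39 ± 0.14, Cplx1 at -0.38 ± 0.11 (adjusted p = 0.00869 to 0.0474), and Unc13a, which was not well above background on any 10 min array (adjusted p = 0.027). For 5 probes all 10 min arrays lay below all controls and for 0 above, against 7.98% and 9.36% of all tested probes. Unc13a, which passed the filter only through control and 8 h arrays, is in both counts. For Sv2a and Sncb the 10 min arrays overlapped the controls. Slc17a7 read 7.40, 7.64 and 7.58 at 10 min, below all controls. The count fell to 0 without 10 min replicate 3, to 1 without replicate 2, to 3 without replicate 1, and to 4, 3, 3 and 2 without control 1, 3, 4 or 5. Over all tested probes 5.25%, 4.49% and 4.37% were lower and 5.87%, 6.15% and 6.87% higher without replicate 3, 2 or 1. Without control 1, 3, 4 or 5, 8.9%, 5.89%, 7.18% and 5.92% were lower and 10.8%, 7.25%, 9.28% and 7.18% higher. With slide as a block, which leaves control 1 as the only control on the slide of these arrays, Syngr3 was at 0.61 ± 0.18, a value that rests on that control.

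At 5 h 25 of the 34 differences lay above 0, with a median of 0.15. By limma 0 probes passed in either direction, against 1.15% lower and 1.68% higher over all tested probes. An unadjusted p under 0.05 was found for 12 of the 34 probes and for 2281 of all 10447. All 5 h arrays lay above all controls for 4 probes, Syn1 7050440, Snap91, Pclo 3140131 and Sncb, and below them for Unc13a, against 6.05% above and 4.39% below over all tested probes. The 5 h arrays of Sncb read 10.82, 10.70 and 10.68, a difference of 0.48 ± 0.14 (adjusted p = 0.0597), and Pclo 3140131 was at 0.40 ± 0.11 (adjusted p = 0.0544). The count varied with the processing. With the authors' normalized ratios, under which the median difference of all probes was 0.097, 8 passed as higher, as did 8.59% of all probes. With scaling to the 75th percentile 1 passed as lower, as did 2.01% of all tested probes. Without control 5, 3 passed as higher, and without control 3, 1 passed in each direction. Over all tested probes 2.82% were higher without control 5, and 2.18% higher and 1.74% lower without control 3.

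At 8 h 27 of the 34 differences lay below 0, with a median of -0.10 and a range of -0.49 to 0.23. By limma 0 probes passed, as did 0 of all tested probes. An unadjusted p under 0.05 was found for 2 of the 34 probes and for 668 of all 10447. For 0 of the 34 probes did the 8 h arrays lie wholly below or above the controls, as 1.08% and 1.82% of all tested probes did. Between 8 h and 15 h, 21 of the 34 probes were lower and 0 higher (61.8%, 19 genes), against 16.9% and 16.0% of all tested probes. The 21 include Unc13a, which passed the filter only through control and 8 h arrays. The median difference was -0.54, led by Slc17a7 at -1.39 ± 0.19, Sncb at -1.21 ± 0.15 and Rab3b at -1.12 ± 0.23 (SE, n = 3 against 3, adjusted p = 3.37e-05, 2.05e-05 and 0.00096). For 25 probes all 15 h arrays lay below all 8 h arrays, as did 25.8% of all tested probes, and for 0 above, against 22.3%. The arrays of 8 h and 15 h lie on different slides. With slide as a block 13 probes passed as lower, against 3.47% lower and 3.23% higher over all tested probes.

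Other genes of the same terminal were also lower in part. A list of 93 other presynaptic genes, put together by role with earlier results known, had 53 genes with 72 tested probes. At 15 h 30 of these probes were lower (41.7%) and 6 higher (8.33%), against 19.9% and 18.7% of all tested probes, with a median of -0.22. These counts, and those of the parts below, include dim probes that passed the filter only through groups where they read high. Examples are Syngr2 among the higher and Lin7a 4540707 among the lower. Of 28 probes of release and priming 15 were lower (53.6%) and 1 higher (median -0.34). Of 29 of endocytosis and recycling 11 were lower (37.9%) and 5 higher (median -0.19). Of 14 of vesicle filling 4 were lower (28.6%), a share nearer to that of all probes, and 0 higher (median -0.14). At 24 h 15 of the 72 probes were lower (20.8%) and 3 higher (4.17%), against 14.4% and 14.7% of all tested probes. Between 24 h and 15 h limma called 0 of them. Some members of the list are named here after their values were seen. The 3 probes of Lin7b, a scaffold protein of the terminal, were at -1.19, -1.38 and -1.55 at 15 h, with adjusted p of 1.5e-05, 1.79e-05 and 8.81e-06. Cadps, which primes dense-core vesicles, was at -0.95 ± 0.11 (adjusted p = 7.19e-06). The 2 probes of Atp6v1g2, a subunit of the proton pump that powers vesicle filling, were at -0.94 and -0.82 (adjusted p = 2.61e-05 and 0.0119). Another subunit, Atp6v0a1, was lower on probe 3870441, at -0.33 ± 0.08 (adjusted p = 0.00315), but not on probe 4230044, at -0.10 ± 0.13. None of the 4 tested probes of Atp6v1c1, Atp6v1d and Atp6v1b2 passed, nor did those of Atp6v0d1, Atp6v1e1 and Atp6v1a.

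Markers of cell types moved in the same arrays. Over all tested probes 19.9% were lower and 18.7% higher at 15 h, 14.4% and 14.7% at 24 h, and 9.39% and 11.0% at 10 min. At 15 h 12 of 18 probes of general neuronal markers were lower and 1 higher (median -0.44), with a summed level of 19288 to 19729 (linear normalized signal per array) against 25799 to 30414 in the controls. At 24 h 7 were lower, and the sum was 21200 to 24061. At 10 min 4 were lower, with a sum of 24039 to 25910. The 1 neuronal marker probe that was higher at 15 h was that of Ncam1. Nefm, a neurofilament gene, was at -1.01 ± 0.15 and Stmn2, a tubulin-binding protein of growing axons, at -0.61 ± 0.11 at 15 h (adjusted p = 4.19e-05 and 0.000177). Of 9 probes of inhibitory neuron markers 3 were lower and 1 higher at 15 h (median -0.12), and their sum, 8200 to 8410, lay within that of the controls, 7852 to 9444. Gad2 and Lhx6 were detected on no array.

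Astrocyte markers were higher on these arrays. Over all tested probes 18.7% were higher and 19.9% lower at 15 h, with 14.7% higher at 24 h and 11.0% higher at 10 min. All 10 tested astrocyte probes were higher at 15 h (median 0.68), with a sum of 39317 to 42349 against 20333 to 29619 in the controls, and 8 were higher at 24 h, with a sum of 36124 to 41012. Gfap, the astrocyte filament gene, rose by 0.53 ± 0.13 at 15 h and by 1.37 at 24 h (adjusted p = 0.0028 and 1.84e-06), while Slc1a2 and S100b were detected on no array. At 10 min, where few members passed, 6 of 10 astrocyte probes were also higher and their sum was 32007 to 35206. Of the microglial markers Aif1, Itgam and Ptprc were detected on no array, and Adgre1, detected on 2 of 5 controls and on all 3 arrays of 15 h, was higher by 0.71 ± 0.12 (adjusted p = 0.000102). C1qa, C1qb and Trem2 were detected on at most 1 control and on 0 arrays of 5 h and 8 h, so they passed the filter through the groups where they were high, and their count is not given. The sum of these 4 dim probes was 199 to 209 at 15 h against 123 to 159, and rests on the same choice. Of 7 progenitor probes 4 were higher (sum 10855 to 11836 against 5271 to 7535), with Pax6 detected on no array. Of 5 oligodendrocyte probes 3 were lower at 15 h and 0 higher, with a sum of 8757 to 9657 against 8994 to 11688, and Mog and Mag were detected on no array. Of the fibroblast and vascular markers both Dcn probes were lower and the Acta2 probe detected on all controls was higher at 15 h, while the other two Acta2 probes, detected on at most 1 control, passed the filter through the groups where they were high. The sum of these 5 probes was 1726 to 2136 against 1512 to 1766, and Col1a1, Col1a2, Lum, Pecam1 and Cldn5 were detected on no array. The part of these cell types in the members' differences was not tested.

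**Figure D5:**
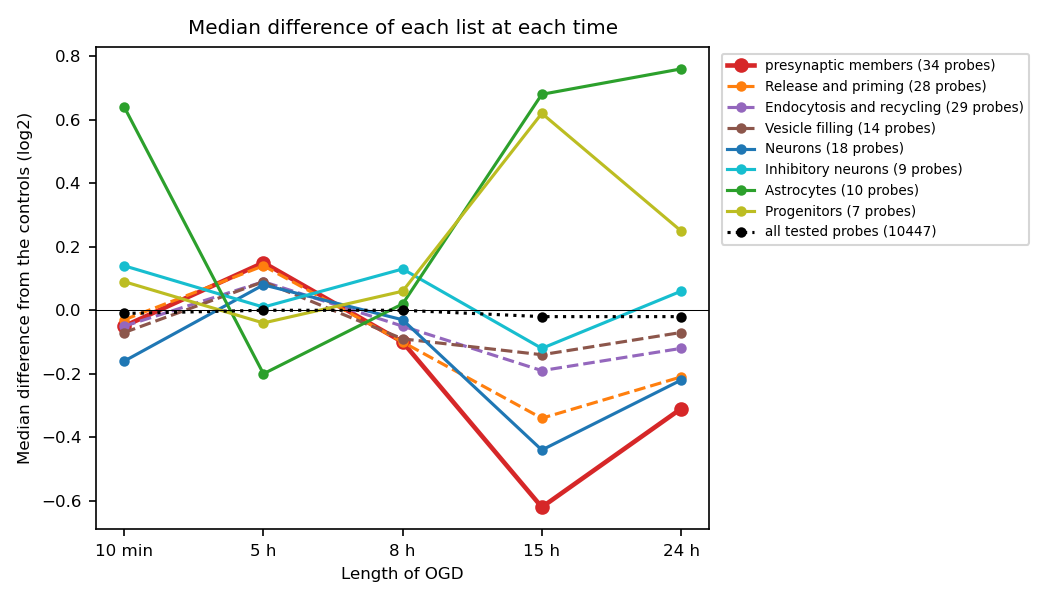
Median log2 difference from the 5 controls at each length of OGD for the 34 member probes (red), other presynaptic lists (dashed), cell type marker lists and all 10447 tested probes (dotted). The members reach -0.62 at 15 h and -0.31 at 24 h, general neuronal markers -0.44 and -0.22, and astrocyte markers 0.68 and 0.76.

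The other members gave no test. Sv2c, Syt11 and Napb had no named probe. Rab3c, Syn3, Synpr, Snap25, Bsn and Synj1 had named probes that were below the detection filter, and none of these was detected on any array. A further 4 genes, Dnm1, Snap91, Vamp1 and Amph, had a second probe below the filter. Of the tested probes, 30 of 34 were detected on all 20 arrays, the others being Sv2a 1450039, Vamp1, Unc13a and Pclo 580059.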

How the data were processed

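RNA of 20 samples was measured on Illumina bead arrays (MouseRef-8 v1.1). Per the file headers, the authors' BeadStudio 3.1.7 profile holds average signal as intensity, not normalized, and a detection score of 1 minus the detection p. The authors' deposited normalized tables hold a ratio, the intensity over the array's median and then over the controls' median, and served as an alternative. Their row names disagreed with the profile: 24396 rows could be matched by value to a single profile probe, and 2 of them carried that probe's identifier. Probes were named through the profile's identifiers, which gave names to 20614. The names rest on this choice. The 120 other per-sample columns were not used.

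The deposited intensities, without the 7 bacterial controls, went through neqc (background correction with offset 16, then quantile normalization) of limma 3.58.1 in R 4.3.3, giving log2 values. A probe was tested where at least 3 arrays had a detection p below 0.01. A model with 6 groups over all 20 arrays was fitted, with moderated two-sided tests and Benjamini-Hochberg adjustment over all 10447 probes within each comparison, at 0.05. The fit was tested on simulated data for 15 h against the controls. In it 67, 67 and 66 of the 10447 probes were changed by 0.5, 1 and 1.5 log2 units, with independent noise and no slide effect. Of these changes 47.8%, 95.5% and 100% were recovered, with 5 false calls. In the data far more probes passed at 15 h, 2078 as lower and 1951 as higher, which makes the adjustment less strict, so these shares do not carry over. Differences of 0.5 were missed in part in that setting, and how often they were missed in the data was not estimated. Precision is limited by how many arrays there are.

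The members and lists were chosen with earlier results of these data known. Array values are given for the 10 largest differences at 15 h past the test, those past the test between 24 h and 15 h, the 4 members nearest to or above 0 at 15 h, and at least 1 member of each role. Summed levels are of linear normalized signal over a list's tested probes. A bound on a fold takes, for a probe not detected in a group, the higher of its own value and the lowest signal among detected probes of each array. Alternatives were other normalizations and filters, slide as a block, a replicate block, fits of only the groups compared, other moderation, the processed tables' names, and leaving out arrays.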

Additional observations from a re-analysis of the deposited data

Results flagged for a closer look

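On Sv2a probe 5570685, control replicate 2 read 10.35, apart from the other 4 controls at 10.96 to 11.12. Of the 34 member probes whose controls were looked at in this way it was the only one with such an array, and chance alone marks about 1 in 20 groups.

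Between 24 h and 15 h, 2 member probes differed in a test of the difference between the times, Syp by 0.49 and Syt1 by 0.68, both higher at 24 h. Between 15 h and 8 h, 21 member probes differed in the same kind of test, all lower at 15 h. The second probe of Dnm1, 1660097, which is below the detection filter, was detected on 1 array of 5 h and on no control.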

How the results depend on the processing

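At 15 h all 26 calls kept their direction under every alternative run on the same probes, and 22 of the 26 also stayed past the threshold, the exceptions being Amph, Slc17a6, Syt4 and Rims1. The size at 15 h moved by over 1.5 times from that of the main fit for 6 probes. They were Rab3b (-1.62 to -0.82), Sv2a 1450039 (-1.05 to -0.47), Rims1 (-0.82 to -0.39), Slc17a6 (-0.56 to -0.26), Amph (-0.42 to -0.21) and the dim Unc13a. Others moved less from the main fit but also spanned a range, such as Dnm1 (-1.13 to -0.69), Syngr1 6650056 (-0.79 to -0.41) and Syt4 (-0.61 to -0.33). Leaving out 1 array at a time gave 23 to 27 members at 15 h, 7 to 17 at 24 h, 18 to 22 for 15 h against 8 h, 0 to 6 for 24 h against 15 h, 0 to 7 at 10 min, 0 to 3 at 5 h and 0 at 8 h. Over all tested probes 14.9% to 23.5% were lower and 15% to 21.9% higher at 15 h, and 8.17% to 19.9% and 9.23% to 19.1% at 24 h. For 15 h against 8 h these were 12.8% to 14.3% and 12.9% to 14.7%, and for 24 h against 15 h 0.172% to 0.747% and 0.0479% to 0.861%. At 10 min they were 4.37% to 16.1% and 5.87% to 17.7%, and at 5 h 0.144% to 2.45% and 0.115% to 2.82%. At 10 min 2 passed with the authors' ratios, 3 without the filter, 3 with slide as a random block and 0 in a fit of only the groups compared. Over all probes of these fits 5.3%, 2.88%, 6.6% and 2.16% were lower and 11.8%, 3.84%, 7.45% and 3.41% higher. With slide as a fixed block or slide-matched controls this comparison rests on control 1 alone, so its count is not given. At 5 h 8 passed with the authors' ratios, 1 with 75th percentile scaling, 2 with quantile normalization without background correction and 2 with trend and robust moderation. Over all probes of these fits 0.441%, 2.01%, 1.45% and 1.41% were lower and 8.59%, 1.98%, 2.49% and 2.19% higher. For 15 h against 8 h 13 passed with slide as a fixed block, under which 3.47% of all tested probes were lower and 3.23% higher. For 24 h against 15 h 1 passed with the authors' ratios, 1 with 75th percentile scaling, 1 without the filter and 9 in a fit of only the groups compared. Over all probes of these 4 fits 0.173%, 0.45%, 0.15% and 4.46% were higher and 0.374%, 0.479%, 0.215% and 4.32% lower. The names of the processed tables put the members on 20 tested probes. Of these 9 passed at 15 h (5 lower, 4 higher), 3 at 10 min, 3 at 24 h, 10 for 15 h against 8 h and 0 for 24 h against 15 h. Over all tested probes of this fit 19.9% were lower and 18.7% higher at 15 h, 9.39% and 11.0% at 10 min, and 14.4% and 14.7% at 24 h. For 15 h against 8 h the shares were 16.9% and 16.0%, and for 24 h against 15 h 0.613% and 0.431%. The causes of these differences were not tested.

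Replicate numbers did not pair the arrays: of 45 same-numbered pairs, 10 had a correlation of deviations over 0.1 (range -0.585 to 0.454). With a replicate block 0 members passed at 10 min and 1 for 24 h against 15 h, and the counts of the other comparisons stayed within 1.5 times. Over all tested probes 2.12% were then lower and 3.22% higher at 10 min, and 0.603% and 0.354% for 24 h against 15 h. Probes near background, such as those of Unc13a and Vamp1, limit what their differences show.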

Other observations

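The 6 of 72 probes of the other presynaptic genes that were higher at 15 h belonged to 5 genes, named here after their values were seen. Sypl, a synaptophysin relative, was higher on both probes, by 0.68 ± 0.12 and 0.58 ± 0.12 (SE, n = 3 against 5, limma adjusted p = 0.000194 and 0.00102). Syngr2, a synaptogyrin of many tissues, was at 0.32 ± 0.11 (adjusted p = 0.0239). Its dim probe was detected on 1 of 5 controls, on 2 arrays of 15 h and on no others. It passed the filter only with the 15 h group, so its call is no evidence of a rise. Vamp3, a SNARE of general membrane traffic, was higher by 0.32 ± 0.10 (adjusted p = 0.0141). Clathrin heavy chain (Cltc) was higher by 0.60 ± 0.20 and light chain Clta by 0.32 ± 0.13 (adjusted p = 0.0239 and 0.0486), while the light chain Cltb was lower, at -0.62 ± 0.18 (adjusted p = 0.00992). Other relatives in the same list did not pass, such as Snap23 at 0.06, Vamp4 at 0.03 and Dnm2 at 0.00. Of the neuronal markers Ncam1 was higher at 15 h, by 0.54 ± 0.13 (adjusted p = 0.00367), and of the inhibitory markers Npy was higher by 0.44 ± 0.10 (adjusted p = 0.00247).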
